A study of Mus musculus with 9 samples.

Results

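The members described here are the mouse genes of oxidative phosphorylation, chosen by symbol: those that start with Nduf, Uqcr or Atp5, Sdha to Sdhd, Cox4i to Cox8, and the 13 protein genes of the mitochondrial genome, with pseudogenes left out. There were 109 members among 57010 rows of the count table, 96 nuclear and 13 mitochondrial. The nuclear members comprised 37 genes of complex I, 4 of complex II, 8 of complex III, 19 of complex IV, 17 of complex V and 11 factors (the assembly factors Ndufaf1 to Ndufaf8, the supercomplex factor Cox7a2l, the ATP synthase inhibitor Atp5if1 and Atp5s). RNA-seq counts came from 9 libraries of mouse primary renal cells, a mixed culture grown in serum-containing medium from enzymatically digested kidneys of wild-type mice. The 3 groups of 3 libraries received PBS, 20 ng/mL of tumour necrosis factor (TNF), or the same TNF dose with 1 µM ACHP, an inhibitor of NF-κB signalling, each for 6 h. The strain, age and sex of the mice, whether replicates came from separate animals or cultures, and the solvent of ACHP are not given in the sources used here, and the p-values therefore measure the spread between these libraries, which may be technical. No group received ACHP without TNF.

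Oxidative phosphorylation passes electrons from NADH (complex I) and succinate (complex II) through ubiquinone, complex III, cytochrome c and complex IV to oxygen, and ATP synthase (complex V) uses the resulting proton gradient to make ATP. Complex II is encoded wholly in the nucleus, whereas the other complexes join nuclear subunits to a core made in the mitochondrion. The mitochondrial genome is transcribed as long precursors from both strands, and tRNAs punctuate most of the boundaries at which these are cut into separate RNAs. Kidney tubule cells rely strongly on this pathway for transport in the animal.

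Total counts per library ranged from 14194295 to 20892176. Levels are given in CPM, the count of a gene scaled to a fixed library total after adjustment with edgeR's scaling factors. Broad kidney epithelial transcripts were abundant (summed level of the list with Pax8, Cdh16 and Krt8, 4929 ± 31.1 CPM in the PBS libraries, 4773 ± 24.4 in the TNF libraries and 5213 ± 166 in the ACHP libraries; SD, n = 3). Of 12 proximal tubule markers, 7 had at most 3 counts in any library, with Slc22a6 and Miox at 0 counts in every library, while Ggt1 had 279 to 519 counts, Lrp2 85 to 161, Cubn 93 to 147, Aqp1 19 to 58 and Anpep 6 to 21. The 12 summed to 47.6 ± 1.73, 34.0 ± 2.27 and 35.6 ± 1.83 CPM with PBS, TNF and ACHP (SD, n = 3). In the same order, 12 collecting duct and distal markers summed to 65.4 ± 2.98, 52.5 ± 2.49 and 54.1 ± 2.55 CPM and 8 fibroblast markers to 256 ± 9.92, 206 ± 7.38 and 189 ± 3.31 CPM. In these 3 sums every PBS library lay above every TNF and ACHP library, and their part in the results below was not tested. Single markers did not all follow the sums. In the distal list Scnn1a held most counts (612 to 826 with PBS, 473 to 547 with TNF, 548 to 772 with ACHP). Hsd11b2 went the other way, with 92 to 130 counts with PBS, 153 to 189 with TNF and 146 to 189 with ACHP. In the fibroblast list Col1a1 held most counts (2070 to 2902 with PBS, 1631 to 2033 with TNF, 1739 to 2370 with ACHP). Pdgfra and Dcn did not fall with TNF. Pdgfra had 52 to 77, 70 to 80 and 56 to 59 counts in the same order. Dcn had 2 to 8, 9 to 13 and 5 to 11. Neuronal transcripts separated 5 libraries from the rest. Their summed level over 20 listed genes was 126 and 103 CPM in PBS replicates 2 and 3 and 53.1, 87.4 and 73.0 CPM in the TNF replicates, against 23.5 CPM in PBS replicate 1 and 21.5 to 23.9 CPM with ACHP. Macrophage transcripts (13 genes) summed to 44.9 ± 1.79, 46.2 ± 1.48 and 26.5 ± 1.42 CPM with PBS, TNF and ACHP (SD, n = 3). The lower sum with ACHP did not hold for every macrophage marker. Cd14 had 108 to 143 counts with PBS, 149 to 169 with TNF and 146 to 188 with ACHP. Cd68 had 68 to 99, 73 to 84 and 71 to 81 counts in the same order. In bulk libraries, fewer cells of a type and less RNA per cell cannot be told apart.

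Of the 109 members, 97 had enough counts to be tested: 90 nuclear and 7 mitochondrial. The 12 others fell into separate kinds. For 6 of them, nuclear isoforms, few or no counts were found: Cox7b2, Cox8b and Cox8c had 0 counts in all libraries, Cox6a2 had 1 count in all, Cox4i2 had 0 to 7 counts per library and Ndufa4l2 had 1 to 6. The other 6 were mitochondrial genes of high usual abundance: mt-Co2, mt-Co3, mt-Atp6, mt-Atp8 and mt-Nd4l had 0 counts in all libraries and mt-Nd3 had 1 count each in PBS replicate 2 and TNF replicate 1.

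The 6 mitochondrial genes without counts lie in 1 block of the mitochondrial genome, in the order mt-Co2, mt-Atp8, mt-Atp6, mt-Co3, mt-Nd3 and mt-Nd4l, between mt-Co1 and mt-Nd4. Mouse chromosome 1 carries a nuclear copy of this block, annotated as a run of pseudogenes, and a read that aligns equally well to both places cannot be assigned to either. The command recorded in the header of the count file has no option to count such reads. In the reference transcripts (GENCODE M21), mt-Co2 matched Gm28661 over 681 bases, mt-Atp6 matched Gm10925 over 678, mt-Co3 matched Gm28437 over 783, mt-Nd3 matched Gm28438 over 342 and mt-Nd4l matched Gm10222 over 294, each at 100% identity. mt-Nd4l (MT:9877-10173, plus strand, in GRCm39) is shown whole because the annotated pseudogene Gm10222 covers all but its last 3 bases. Those 3 bases also lie in mt-Nd4, in the part matched by the next pseudogene, Gm28439. Capitals mark the bases identical to Gm10222 (chr1:24651488-24651781, minus strand).
mt-Nd4l: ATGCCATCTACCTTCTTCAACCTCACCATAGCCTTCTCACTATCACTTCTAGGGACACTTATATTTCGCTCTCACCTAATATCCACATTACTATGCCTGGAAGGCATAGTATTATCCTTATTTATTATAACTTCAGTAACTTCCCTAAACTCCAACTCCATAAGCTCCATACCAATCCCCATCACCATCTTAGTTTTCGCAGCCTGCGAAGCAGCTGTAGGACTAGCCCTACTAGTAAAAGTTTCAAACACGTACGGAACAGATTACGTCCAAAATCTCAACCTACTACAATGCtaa

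The flanking genes were copied in part. The last 483 bases of mt-Co1 (bases 1063 to 1545 of the gene) aligned to Gm29216 with 1 mismatch, A1066T, with positions counted from the first base of mt-Co1 and its base given first. The first 876 bases of mt-Nd4 matched Gm28439 at 100% identity. Both genes kept counts, and their levels below rest on the parts that no other gene shares. In mt-Co1, 765 of 1496 stretches of 50 bases occur in another gene, more than its 483 aligned bases can hold. Some of the rest of mt-Co1 is therefore shared as well. The stretch shown runs from base 1003 to 1122 of mt-Co1, and capitals mark the start of the copied part.
mt-Co1: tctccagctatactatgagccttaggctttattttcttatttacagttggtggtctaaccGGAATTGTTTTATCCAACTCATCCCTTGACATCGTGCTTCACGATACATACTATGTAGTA

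For mt-Atp8 (MT:7766-7969) the match was short. Its last 43 bases overlap the start of mt-Atp6 and are also the first 43 bases of Gm10925, and no stretch of 50 bases of it was found in another gene. It is printed because it had 0 counts although 161 of its 204 bases lie outside mt-Atp6 and Gm10925. Capitals mark the 43 shared bases.
mt-Atp8: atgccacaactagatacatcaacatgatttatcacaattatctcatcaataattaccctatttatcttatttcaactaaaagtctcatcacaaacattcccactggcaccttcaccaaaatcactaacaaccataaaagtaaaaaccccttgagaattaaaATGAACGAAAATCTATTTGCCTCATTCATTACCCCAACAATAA

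The gap between the copied parts of mt-Co2 and mt-Atp6, which holds the first 161 bases of mt-Atp8, was 233 bases long in the mitochondrial genome and 233 bases between Gm28661 and Gm10925 on chromosome 1, and the chromosome 1 sequence of that gap was not analysed here. Of all stretches of 50 bases in a gene, 100% in mt-Co2, 99.9% in mt-Co3, 99.5% in mt-Atp6, 98.8% in mt-Nd4l and 98.0% in mt-Nd3 were also found in another gene, against 62.2% in mt-Nd4, 51.1% in mt-Co1, 8.2% in mt-Nd2, 7.6% in mt-Nd5 and 0% in mt-Nd1, mt-Nd6, mt-Cytb and mt-Atp8. All statements on mitochondrial transcripts therefore cover 7 of 13 protein genes, with no gene of complex V among them.

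**Figure D1:**
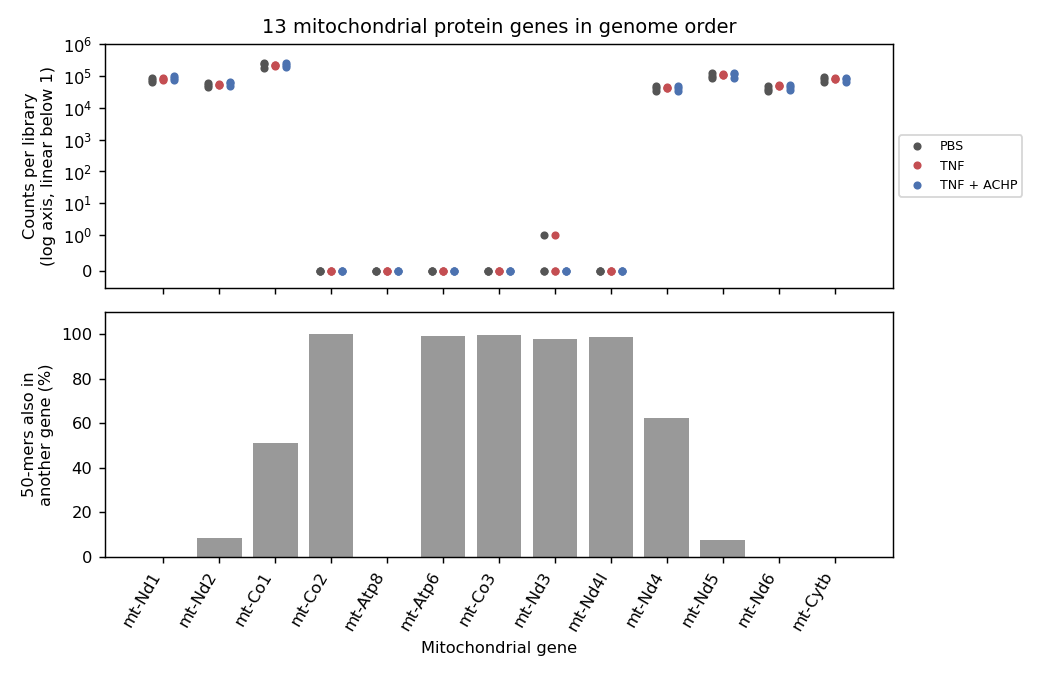
Counts per library of the 13 mitochondrial protein genes in genome order (upper panel, log axis, 1 point per library) and the percentage of each gene's 50-base stretches also found in another gene (lower panel). The 5 genes at 98.0% or more had at most 1 count in any library, and mt-Atp8 had 0 counts with 0% of its 50-base stretches shared.

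The measured mitochondrial genes stood far above every nuclear member. Per kilobase of exon, mt-Co1, the catalytic core of complex IV, reached a mean of 8388 CPM over the 9 libraries. mt-Nd6 and mt-Nd1 followed at 5080 and 4978 CPM per kb, then mt-Cytb at 4051, mt-Nd5 at 3444, mt-Nd2 at 3080 and mt-Nd4 at 1779. For mt-Co1 and mt-Nd4 these values divide by the whole gene length, although only part of each gene can be counted. The median of the 90 tested nuclear members was 28.4 CPM per kb, and the highest was Cox6b1, a small subunit of complex IV, at 266. Next to it stood Atp5b, the catalytic β subunit of ATP synthase, at 221 CPM per kb. At the low end, Atp5l (1.03), Cox6b2 (1.04), Cox7a1 (1.13) and Ndufb2 (1.72 CPM per kb) were the lowest subunits, and Atp5g1 (3.96) and Ndufb8 (4.19) came next. Atp5l and Ndufb2 encode subunits of single-isoform positions, and their annotated exons sum to 6443 and 5628 bases, which lowers a value per kilobase. By complex, the nuclear medians were 24.7 CPM per kb for complex I, 38.8 for II, 54.8 for III, 83.8 for IV and 37.3 for V, and 5.81 for the factors.

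**Figure D2:**
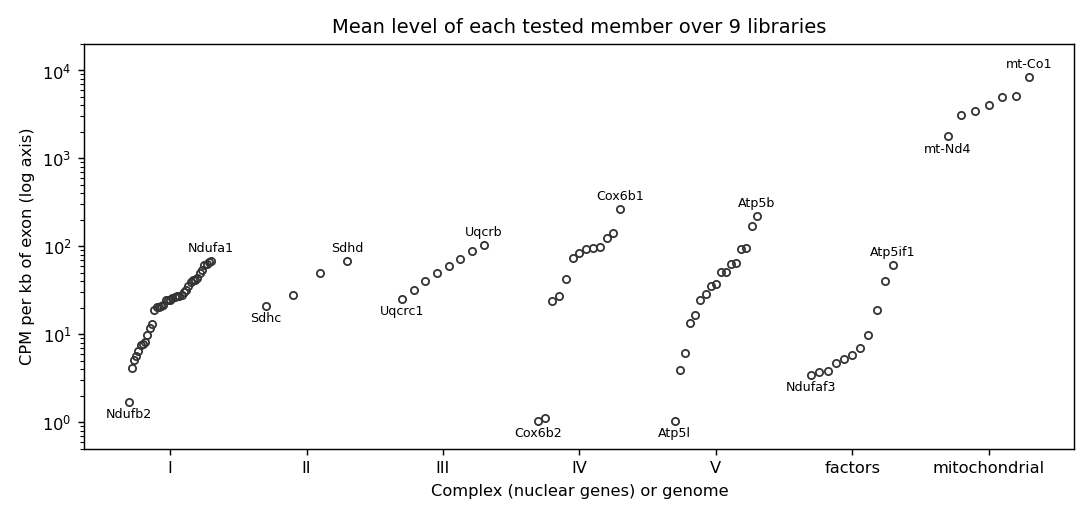
Mean level over 9 libraries of each tested member, in CPM per kb of exon (log axis), by complex for nuclear genes and together for mitochondrial genes; the lowest and highest gene of each set are named. The 7 mitochondrial genes lie between 1779 and 8388 CPM per kb, and the highest nuclear member, Cox6b1, at 266.

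The isoforms used in these cultures were those found in most tissues. Cox4i1 had 29432 counts over all libraries and its lung and hypoxia-associated partner Cox4i2 had 24. Cox6a1 had 15090 counts against 1 for the heart and muscle form Cox6a2, and Cox7a2 had 14023 against 91 for the muscle form Cox7a1. For Cox6b1 the total was 28749 counts, against 176 for the testis form Cox6b2. Cox8a had 7954 counts and both Cox8b and Cox8c had 0. Ndufa4, which sits on complex IV, had 19601 counts against 26 for the hypoxia-inducible Ndufa4l2. None of the major forms except Cox8a was called in any comparison. Cox6a1 was at 93.0, 97.1 and 101 CPM in PBS libraries, 97.7, 99.2 and 95.1 CPM in TNF libraries and 99.2, 98.1 and 109 CPM in ACHP libraries. Cox6b1 was at 187, 189 and 177 CPM, then 185, 189 and 186, then 183, 192 and 208 CPM in the same order. Cox7a2 was at 89.6, 93.0 and 87.1 CPM, then 89.3, 97.6 and 93.1, then 94.5, 90.7 and 93.6 CPM. Ndufa4 was at 128, 124 and 131 CPM, then 127, 131 and 133, then 128, 124 and 132 CPM. For these 4 genes the groups overlapped in every comparison.

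The summed expression of the nuclear members overlapped between the treatments. It came to 6645 ± 101 CPM under PBS, 6731 ± 22.6 CPM under TNF and 6776 ± 182 CPM under TNF plus ACHP (SD, n = 3). The 3 ranges overlapped: 6585 to 6762, 6707 to 6752 and 6666 to 6985 CPM. One core member of each complex is given library by library. Ndufs1, the largest subunit of complex I, was at 102, 108 and 99.4 CPM in the PBS libraries, 111, 109 and 103 CPM under TNF and 102, 104 and 105 CPM once ACHP was added. Sdhb, the iron-sulphur subunit of succinate dehydrogenase, read 60.6, 62.9 and 63.2 CPM in PBS libraries, 60.8, 61.8 and 66.3 CPM in TNF libraries and 64.0, 65.2 and 66.4 CPM in ACHP libraries. Uqcrc2, a core subunit of complex III, had 123, 123 and 127 CPM, then 124, 129 and 128, then 126, 124 and 130 CPM in the same order of groups. Cox4i1 had 183, 194 and 194, then 192, 197 and 206, then 186, 187 and 198 CPM. Atp5b had 912, 919 and 950, then 942, 935 and 936, then 916, 929 and 970 CPM. Of these 5 genes in the 3 comparisons, the groups were separate only for Sdhb with ACHP against PBS, at a log2 fold change of 0.07 (95% interval -0.03 to 0.16). The intervals of the TNF effect ran from -0.02 to 0.16 for Ndufs1, -0.09 to 0.11 for Sdhb, -0.05 to 0.11 for Uqcrc2, -0.03 to 0.14 for Cox4i1 and -0.05 to 0.08 for Atp5b on the log2 scale.

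The 7 measured mitochondrial protein genes held 3.60%, 3.98% and 3.36% of all counts in the PBS libraries, 3.59%, 4.12% and 3.84% in the TNF libraries and 3.95%, 3.43% and 3.36% in the ACHP libraries. Libraries of each group spanned nearly the same range, with means of 3.65 ± 0.313%, 3.85 ± 0.269% and 3.58 ± 0.320% (SD, n = 3). Per count on a nuclear member there were 5.47 ± 0.561, 5.74 ± 0.386 and 5.30 ± 0.593 mitochondrial counts with PBS, TNF and ACHP. The spread between libraries of a group was wider for the mitochondrial genes: with PBS the SD was 0.313 percentage points of a mean of 3.65%, against 0.0145 of a mean of 0.668% for the share of the nuclear members.

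**Figure D3:**
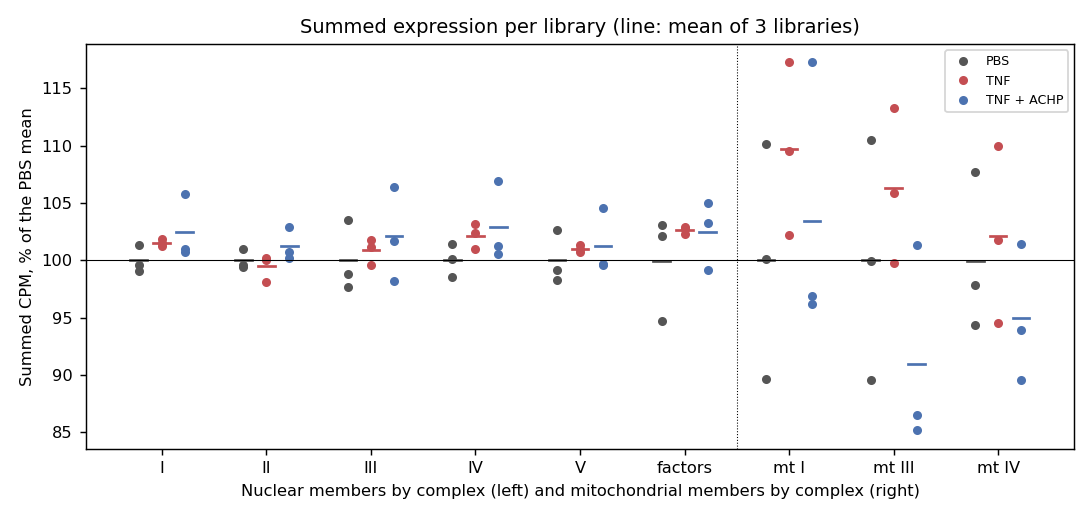
Summed CPM of the tested members of each complex in each library, as a percentage of the PBS mean, for nuclear members (left) and mitochondrial members (right); horizontal lines are group means of 3 libraries. Nuclear sums stay within a narrow band around the PBS mean, and mitochondrial sums spread more widely in every group.

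The first comparison asked what TNF changed. It called 1 of 97 members, or 1.03%, where 6.22% of the 14747 genes tested were called (3.31% higher and 2.91% lower; edgeR quasi-likelihood test at 0.05, with p-values adjusted by Benjamini and Hochberg across every gene tested). The member was Uqcrb, a small nuclear subunit of complex III next to the ubiquinone-binding site, which rose with TNF. Its level was 88.0, 90.8 and 84.7 CPM with PBS and 100.3, 103 and 93.2 CPM with TNF, so every TNF library lay above every PBS library. This was a log2 difference of 0.17 ± 0.05 (SE), with an edgeR adjusted p of 0.0305. The gene lies at chr13:67048681-67053442 on the minus strand (GRCm39), and 25.5% of its 50-base stretches also occur in other genes. Leaving out PBS replicate 1 or 3, or TNF replicate 1 or 2, ended the call (edgeR adjusted p = 0.052, 0.0997, 0.143 and 0.188), as did a term for the 5 libraries with neuronal transcripts (adjusted p = 0.0501), with log2 fold changes of 0.14 to 0.21 over the libraries left out.

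The median log2 fold change with TNF was 0.029 over the members and -0.002 over all genes tested. For 73 of 97 members the 95% interval lay wholly within a 1.2-fold change in either direction, and for 95 of 97 within a 1.5-fold change. The exceptions to the wider bound were Cox6b2 and Cox7a1, isoforms with few counts. Groups were separate for 9 members (9.28%), all higher with TNF, against 23.8% of all genes tested; among them were mt-Nd6, Uqcrb, Cox5b and Cox7c.

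All 7 mitochondrial genes had a log2 fold change above 0 with TNF, from 0.03 for mt-Co1 to 0.31 for mt-Nd6, with a median of 0.088, and none was called. In all, 7 members had an unadjusted edgeR p under 0.05, against 18.7% of all genes tested. The mitochondrial genes are cut from shared precursors and are not independent of one another. Without PBS replicate 3, 4 of 7 were above 0 with a median of 0.017, and without TNF replicate 2, 5 of 7 with a median of 0.037, while the median was 0.167 without PBS replicate 2. All 7 stayed above 0 with DESeq2 or RLE size factors, with total counts alone and with scaling that left out mitochondrial counts. mt-Nd1, a membrane subunit of complex I, had 4473, 4800.1 and 4041 CPM with PBS and 4620 to 5125 CPM with TNF, a log2 fold change of 0.13 (SE 0.05, edgeR adjusted p = 0.186).

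mt-Nd6 stood out among the mitochondrial genes in position as well as in value, since it is the only protein gene on the light strand of the mitochondrial genome (MT:13552-14070). It had 2428, 2675 and 2066 CPM in PBS libraries, 2762, 3156 and 2973 CPM in TNF libraries and 3220, 2102 and 2348 CPM in ACHP libraries. The TNF libraries lay above the PBS libraries, and the ACHP libraries spanned both. For TNF against PBS the log2 fold change of 0.31 ± 0.11 (SE) missed the threshold (edgeR adjusted p = 0.0911). Over the alternatives the adjusted p ran from 1.6e-18, with no filter on low counts, to 0.443. As a share of the mitochondrial protein gene counts, which does not depend on scaling, mt-Nd6 took 6.74%, 6.75% and 6.23% in PBS libraries, 7.68%, 7.62% and 7.71% in TNF libraries and 8.11%, 6.15% and 6.98% in ACHP libraries. mt-Co1, on the heavy strand, took 35.6%, 35.6% and 37.3% with PBS and 34.4%, 34.8% and 34.6% with TNF. The counting command in the file header sets no strand option, and featureCounts then counts reads of both strands, so RNA from the opposite strand of mt-Nd6 cannot be told apart from its own.

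**Figure D4:**
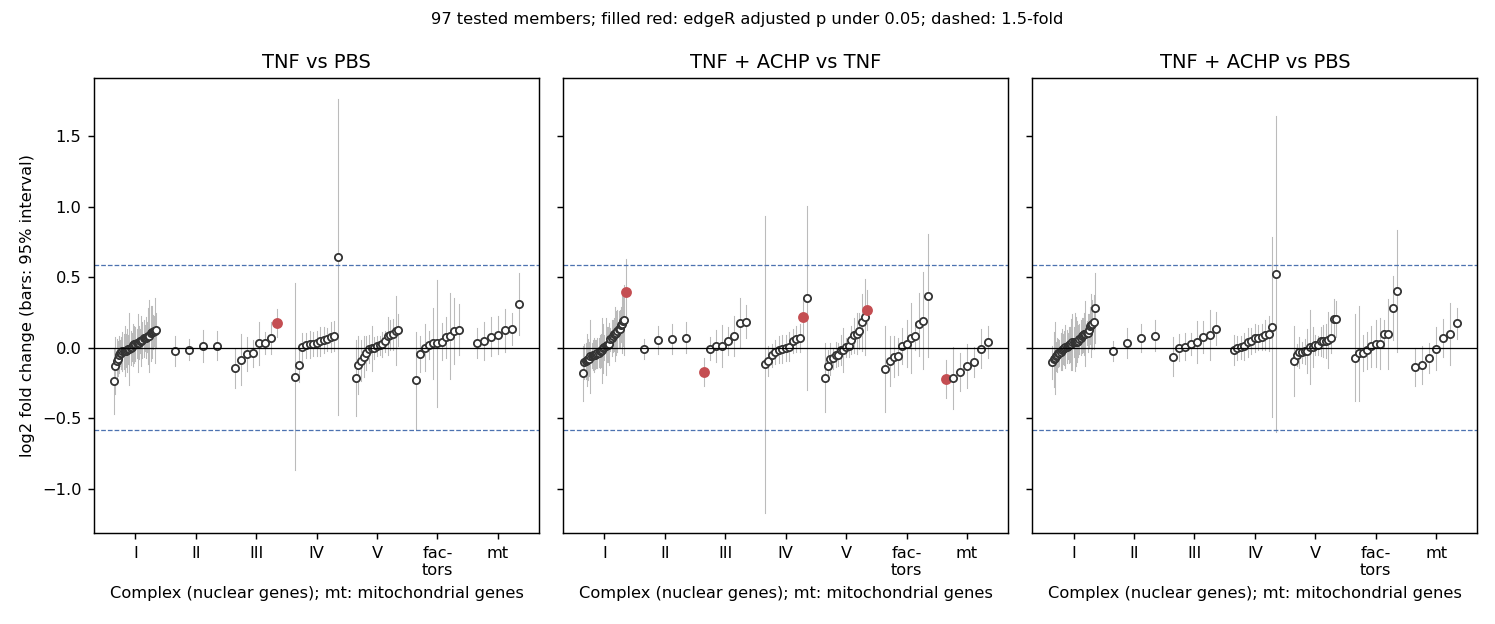
Log2 fold change of each of the 97 tested members with its 95% interval in the 3 comparisons, ordered within each complex; filled red points passed the edgeR adjusted p threshold of 0.05, and dashed lines mark a 1.5-fold change. There is 1 filled point with TNF, there are 5 with ACHP against TNF and none with ACHP against PBS, and the widest intervals belong to the low isoforms Cox7a1 and Cox6b2.

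The second comparison asked what ACHP changed in the presence of TNF. It called 5 of 97 members, or 5.15%, where 7.17% of all genes tested were called (2.71% higher and 4.46% lower). Atp5d, Cox8a and Ndufs7 were higher with ACHP, and Uqcrb and mt-Cytb were lower. The log2 fold changes ran from -0.22 to 0.39 over all 97 members, with a median of 0.007 against 0.003 over all genes. The interval lay within 1.2-fold for 66 members and within 1.5-fold for 93. Groups were separate for 18 members (18.6%), 13 higher and 5 lower, against 25.7% of all genes tested, and 12 members had an unadjusted edgeR p under 0.05, where 20.4% of all genes had one.

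Atp5d encodes the δ subunit of the central stalk of ATP synthase. It had 59.1, 60.3 and 68.1 CPM with TNF and 72.9, 76.9 and 75.0 CPM with ACHP, with no overlap, and the PBS libraries at 63.3, 58.6 and 73.6 CPM spanned most of that range. Atp5d was higher with ACHP than with TNF alone by 0.27 ± 0.07 (SE) on the log2 scale, with an edgeR adjusted p of 0.0214. The call was lost without TNF replicate 1 or 2 or ACHP replicate 2 or 3 (edgeR adjusted p = 0.145, 0.116, 0.102 and 0.0706).

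Cox8a, the smallest nuclear subunit of complex IV, had 49.5, 47.6 and 46.4 CPM with TNF and 54.0, 57.1 and 56.1 CPM with ACHP. Its PBS libraries had 48.2, 50.5 and 57.1 CPM and overlapped both groups. The rise against TNF was 0.22 ± 0.06 (SE) in log2 units, with an edgeR adjusted p of 0.0268. Without TNF replicate 1, 2 or 3 or ACHP replicate 2 or 3 the adjusted p was 0.0569, 0.102, 0.118, 0.131 and 0.0855.

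Ndufs7 carries the iron-sulphur cluster that hands electrons to ubiquinone in complex I. It had 11.95, 11.1 and 10.5 CPM with TNF, 14.9, 16.0 and 13.1 CPM with ACHP and 10.9, 13.6 and 14.9 CPM with PBS. The ACHP libraries lay above the TNF libraries, and the PBS libraries spanned both. It rose by 0.39 ± 0.11 (SE) in log2 units against TNF (edgeR adjusted p = 0.0333), which DESeq2 put at 0.39 with an adjusted p of 0.0693. Without TNF replicate 1, 2 or 3 or ACHP replicate 1 or 2 the edgeR adjusted p was 0.0633, 0.114, 0.134, 0.0677 and 0.19.

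Uqcrb, which had risen with TNF, fell to 90.1, 86.0 and 87.5 CPM with ACHP, within the range of the PBS libraries. Against TNF its log2 fold change was -0.17 ± 0.05 (SE), with an edgeR adjusted p of 0.0266. Both comparisons of Uqcrb share the 3 TNF libraries. The call was lost without TNF replicate 1 or 2 or ACHP replicate 2 or 3 (edgeR adjusted p = 0.114, 0.155, 0.0998 and 0.079).

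mt-Cytb, cytochrome b, is the sole mitochondrial subunit of complex III. Levels were 4673, 5169.6 and 4187 CPM in PBS libraries, 4665, 5297 and 4952 CPM in TNF libraries and 4739, 4046 and 3983 CPM in ACHP libraries. ACHP replicate 1 lay above TNF replicate 1, so the groups overlapped. edgeR put the fold change at -0.22 ± 0.06 (SE) in log2 units, with an adjusted p of 0.0394, and DESeq2 gave an adjusted p of 0.267. Without TNF replicate 2 or 3 or ACHP replicate 2 or 3 the edgeR adjusted p was 0.211, 0.112, 0.145 and 0.185.

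Of the 7 mitochondrial genes, 6 had a log2 fold change below 0 with ACHP against TNF, with a median of -0.13. The exception was mt-Nd1 at 0.04. Without ACHP replicate 1, all 7 were below 0 with a median of -0.242, and without TNF replicate 2 or ACHP replicate 3, 5 of 7 were, with medians of -0.068 and -0.066. As shares of the mitochondrial protein counts, mt-Nd1 took 12.8%, 12.4% and 12.5% with TNF and 13.6%, 13.7% and 14.5% with ACHP, and mt-Cytb took 12.97%, 12.8% and 12.8% with TNF and 11.9%, 11.9% and 11.8% with ACHP. For both genes these shares were separate between the groups.

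**Figure D5:**
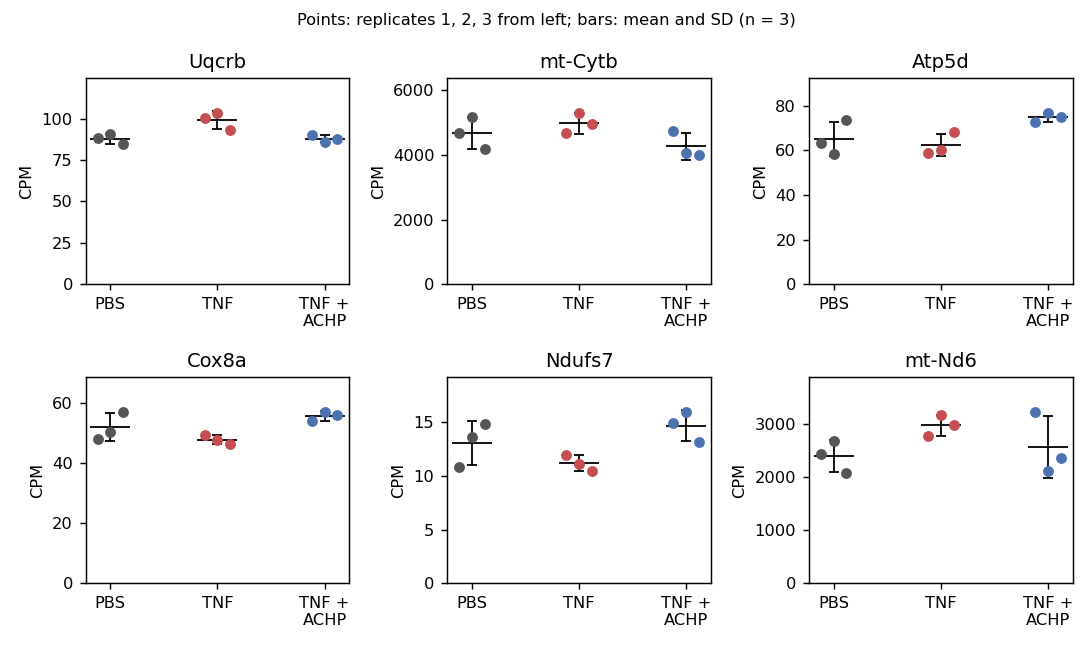
CPM in each library of the 5 members called in at least 1 comparison and of mt-Nd6, with the mean and SD of 3 libraries (axes start at 0). Uqcrb is highest in the TNF libraries, and Atp5d, Cox8a and Ndufs7 are higher with ACHP than with TNF alone. PBS libraries overlap both other groups for every gene except Uqcrb and mt-Nd6, for which they overlap the ACHP group only.

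The called members differed in base composition. The transcripts of the 3 genes that were higher with ACHP had a GC content of 59.3% (Atp5d), 58.6% (Cox8a) and 59.6% (Ndufs7), and those that were lower had 40.4% (Uqcrb) and 39.1% (mt-Cytb). Over the 90 nuclear members the log2 fold change of ACHP against TNF and the GC content had a Pearson correlation of 0.43, against 0.08 over the 14540 genes with a GC value. The members share their libraries, so this is a description. The difference of a single library from the mean of its own group also correlated with GC content, in either direction: at -0.31, -0.14 and 0.39 in the PBS libraries, -0.21, 0.14 and 0.13 in the TNF libraries and -0.32, 0.09 and 0.22 in the ACHP libraries. With an offset for GC content, an alternative chosen after seeing the data, the members called were Uqcrb, mt-Cytb and Cox4i1, all lower. Under that offset alone the log2 fold change of Cox8a fell to 0.14 (edgeR adjusted p = 0.139), and the adjusted p was 0.0656 for Atp5d and 0.107 for Ndufs7. With a replicate block added to the offset, 5 members were called: Atp5d, Uqcrq, Uqcrb, mt-Cytb and Cox4i1. Of these, 2 were higher and 3 lower. Over all genes, 990 were called with the offset and 1047 with the block added, against 1058 in the main fit.

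The neuronal transcripts given above also separate the TNF libraries from those with ACHP. With the summed neuronal level as a covariate, 1 member, Ndufs7, was called with ACHP against TNF (log2 fold change 0.61), and 265 of all genes were called against 1058 without it. The log2 fold changes of the others were 0.29 for Atp5d, 0.30 for Cox8a, -0.16 for Uqcrb and -0.17 for mt-Cytb, beside 0.27, 0.22, -0.17 and -0.22 without the covariate, and their edgeR adjusted p was 0.156, 0.0781, 0.285 and 0.406. With a term for the 5 libraries, 1 member, Ndufs7, was called, with a log2 fold change of 0.79. In that fit every TNF library carries the term and no ACHP library does, and 143 of all genes were called against 1058 without the term. The size of the term therefore came from the PBS group alone, replicate 1 against replicates 2 and 3. There Ndufs7 had 10.9 CPM against 13.6 and 14.9 CPM. The Ndufs7 estimate of 0.79 thus rests on 1 PBS library, and no conclusion is drawn from it. The summed macrophage level also moved with ACHP, and its part in these results was not tested.

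The third comparison set TNF with ACHP against PBS. It called 0 of 97 members, where 6.04% of all genes tested were called (2.18% higher and 3.87% lower). DESeq2 also called 0, and 10 of 97 members had an unadjusted edgeR p under 0.05, as did 18.8% of all genes tested. The nearest to the threshold were Atp5j2, subunit f of ATP synthase, with a log2 fold change of 0.20 (SE 0.06, edgeR adjusted p = 0.0615), and mt-Nd1 with 0.17 (SE 0.05, adjusted p = 0.068). Atp5j2 had 52.2, 47.3 and 55.9 CPM with PBS and 59.9, 55.5 and 63.7 CPM with ACHP, and its groups overlapped at ACHP replicate 2. The interval lay within 1.2-fold for 74 members and within 1.5-fold for 94. Groups were separate for 9 members (9.28%), all higher with ACHP, against 20.6% of all genes tested. The median log2 fold change was 0.036 for the members against 0.005 for all genes. Without PBS replicate 3, 5 members were called, and 1 or 2 without PBS replicate 2 or ACHP replicate 1 or 2. Over all genes, 988 were called without PBS replicate 3 and 511 without PBS replicate 2. Without ACHP replicate 1 or 2, the number was 817 or 667, against 891 with all libraries.

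With ACHP against TNF, complex III held 2 called members, both lower: Uqcrb of 8 tested nuclear genes and mt-Cytb, its 1 mitochondrial gene. Of all genes tested, 7.17% were called in that comparison. The groups overlapped for mt-Cytb, and DESeq2 did not call it. No other complex held more than 1 called member in a comparison. The complexes differ in size, and such small counts set none of them apart. Among the 37 nuclear genes of complex I, 0 were called with TNF, 1 with ACHP against TNF and 0 with ACHP against PBS, and the median log2 fold changes were 0.027, 0.001 and 0.039. All 4 genes of complex II had intervals within 1.2-fold in all 3 comparisons. The 8 nuclear genes of complex III had medians of -0.005, 0.028 and 0.032. The 13 tested nuclear genes of complex IV had medians of 0.029, -0.005 and 0.068, and the 17 of complex V had medians of 0.009, 0.001 and 0.016. Among the 11 factors, 0 were called in any comparison, and their median SE was 0.086 against 0.06 over all members, at their lower levels. Cox7a2l, which joins complexes III and IV, was at 58.3, 56.8 and 59.9 CPM in PBS libraries, 57.1, 58.3 and 61.6 CPM in TNF libraries and 63.1, 62.3 and 61.7 CPM in ACHP libraries, a log2 fold change of 0.10 (95% interval 0.00 to 0.19) for ACHP against PBS. Atp5if1, the peptide that blocks ATP synthase from running in reverse, had 86.3 ± 9.92, 90.8 ± 2.71 and 87.1 ± 7.64 CPM with PBS, TNF and ACHP (SD, n = 3), and 69.6% of its exon bases also lie in exons of other genes.

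Other genes of the pathway were read against the 6.22%, 7.17% and 6.04% of all genes called in the 3 comparisons. Of 38 tested assembly factors outside the naming rule (such as Surf1, Sco1 and Bcs1l) and 17 enzymes of the tricarboxylic acid cycle, 0 were called in any comparison. Of 26 genes of mitochondrial DNA expression, 0 were called, among them Tfam, which packages and helps transcribe the mitochondrial genome, at 47.7 ± 1.53 CPM with PBS and 52.8 ± 2.18 CPM with TNF (SD, n = 3, edgeR adjusted p = 0.138). Among 18 carriers 1 was called with TNF (5.56%, near the share of all genes) and 0 in the other comparisons: Etfdh, which passes electrons from fatty acid oxidation to ubiquinone, rose with TNF by a log2 fold change of 0.17 (SE 0.05, edgeR adjusted p = 0.0328). Among 13 regulators of mitochondrial biogenesis, 1 was called with TNF and 1 with ACHP against PBS (7.69% each, slightly above the share of all genes). The coactivator Pprc1 rose with TNF by 0.17 (SE 0.05, edgeR adjusted p = 0.0339), which DESeq2 put at an adjusted p of 0.0666, and Myc rose with ACHP against PBS by 0.17 (SE 0.04, edgeR adjusted p = 0.0193). Of 77 mitochondrial ribosomal proteins, 1 was called with TNF, 1 with ACHP against TNF (1.3% each) and 0 with ACHP against PBS. Mrpl57 fell by 0.37 on the log2 scale with TNF (SE 0.11, edgeR adjusted p = 0.0398), and Mrpl10 rose with ACHP against TNF by 0.23 (SE 0.06, edgeR adjusted p = 0.0196). The call was lost without PBS replicate 3 or any TNF library for Etfdh (edgeR adjusted p = 0.0663 to 0.156). For Pprc1 it was lost without PBS replicate 2 or 3 or any TNF library (0.0772 to 0.165), and for Myc without PBS replicate 1 or 2 or ACHP replicate 2 or 3 (0.0534 to 0.0906). For Mrpl57 it was lost without PBS replicate 2 or 3, any TNF library or ACHP replicate 3 (0.0515 to 0.208), and for Mrpl10 without any TNF library or ACHP replicate 2 or 3 (0.0563 to 0.0919). Ppargc1a, the best known coactivator of biogenesis, was low at 4.86, 7.68 and 7.19 CPM in PBS libraries, 4.39, 4.66 and 5.37 CPM in TNF libraries and 3.18, 4.91 and 5.16 CPM in ACHP libraries, and was not called (edgeR adjusted p = 0.158 with TNF and 0.0701 for ACHP against PBS).

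Promoter windows of the nuclear members were searched for motifs, as a description with no test. RefSeq windows from 250 bases before to 50 after the start (GRCm38.p6) were matched for 79 of 96 nuclear members. The consensus sequence of the respiratory factor NRF1 was found on either strand in 25.3% of them, against 5.19% of 27025 genes and 11.1% of the 10697 tested genes with a window. CCGGAAG, of the ETS family that includes GABP, was in 24.1%, against 9.93% and 19.4%. The consensus of YY1 was in 6.33%, against 0.755% and 1.7%. At least 1 of these was in 38 of the 79 members (48.1%), 14.5% of all genes and 29.2% of tested genes. The median GC content of the windows was 58.5% for members and 52.7% for all genes. The 250 bases before the start of Cox6a1 (chr5:115348959-115349208, minus strand) are printed because both the NRF1 and the ETS letters, in capitals, occur there. A match is a description of letters and shows no binding.
Cox6a1: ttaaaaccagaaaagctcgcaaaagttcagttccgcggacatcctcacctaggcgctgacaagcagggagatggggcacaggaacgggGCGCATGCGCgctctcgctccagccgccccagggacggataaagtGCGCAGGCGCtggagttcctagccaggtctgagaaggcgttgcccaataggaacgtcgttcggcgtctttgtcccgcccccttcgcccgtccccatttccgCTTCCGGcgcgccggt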

How the data were processed

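RNA-seq of 9 libraries was analysed from the 1 deposited table of raw read counts per gene. The authors aligned reads with STAR and counted them with featureCounts (version 2.0.1), per the submitters' processing notes and the file headers. The file header names Ensembl 109 on GRCm39, whereas the notes name mm10. Gene coordinates are the file's and gene symbols came from tables matched by identifier (52029 of 57010, holding 99.6% of counts). Sequences came from GENCODE M21 transcripts and RefSeq promoters, both on GRCm38.

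Genes passing edgeR's filterByExpr (14747) were scaled by TMM factors (0.993 to 1.01) and fitted over all 9 libraries with a mean per group (edgeR 4.0.16, R 4.3.3; quasi-likelihood test; Benjamini-Hochberg over all genes; threshold 0.05). DESeq2 1.42.0 was an alternative. The script was tested on simulated data. Intervals are at 95%, and the SE is the log2 fold change divided by the root of F. The members Atp5md, Ndufb1 and Atp5if1 were found through RefSeq names, being listed as Usmg5, Ndufb1-ps and Atpif1. The pseudogenes left out numbered 12, with at most 57 counts in all libraries. Named genes were every mitochondrial protein gene, every called nuclear member, 1 core member per complex, tissue isoforms, and up to 3 called genes per other list. Ndufs1 and the other core genes, as all members and lists, were chosen with earlier results of these data known. Members described by position or closeness to a threshold (mt-Nd6's shares, Atp5j2, Tfam, Ppargc1a) were picked after their values were seen. Replicate libraries differed by more than sampling noise (chi-square per degree of freedom 1.86 to 6.55). Adjusted p-values in the text are edgeR's unless DESeq2 is named. Intervals cover the spread between these libraries. Single deposited libraries were left out in turn as an alternative, among others given in the closing section.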

Additional observations from a re-analysis of the deposited data

How the results depend on the processing

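The median SE over the tested members was 0.06 on the log2 scale with TNF, and depth limited Cox7a1 and Cox6b2 most. Over 391 alternative estimates, 23 for each call of a named gene and for mt-Nd6 with TNF, 0 changed direction. These genes were picked by their values in the same counts, and some alternatives repeat or barely alter the main fit. A change of direction was thus unlikely from the start, and no conclusion is drawn from its absence. The share of counts on mitochondrial protein genes moved by less than 1 SD in all 15 alternatives. Leaving 1 of 3 libraries out of a group cannot move its mean by 1 SD, and scaling does not enter this share. No conclusion is therefore drawn from that result. With TNF, the count of members called (1) became 4 with no filter on low counts, 2 with the 6 libraries alone, 0 at an adjusted p under 0.01, 0 with a term for the neuronal libraries, 2 with the GC offset and 2 with the GC offset and replicate block. In the same order, 1096, 940, 442, 953, 1022 and 995 of all genes were called, against 917 in the main fit. With ACHP against TNF the count (5) became 3 with DESeq2, 10 with no filter, 8 with 6 libraries, 3 with counts thinned to the smallest library, 0 at 0.01, 1 with the neuronal covariate, 1 with the neuronal term and 3 with the GC offset. It stayed at 5 with the GC offset and replicate block, where 3 were calls of the main fit. In the same order, 787, 1455, 1380, 955, 468, 265, 143, 990 and 1047 of all genes were called, against 1058 in the main fit. With ACHP against PBS the count (0) became 5 with no filter, 3 with the replicate block, 1 with the GC offset and 2 with the GC offset and replicate block. In the same order, 1278, 988, 858 and 870 of all genes were called, against 891 in the main fit. Leaving out single libraries gave 0 to 3, 0 to 8 and 0 to 5 members in these 3 comparisons, with 3 without PBS replicate 2 in the first, 8 without ACHP replicate 1 and 0 without TNF or ACHP replicate 2 in the second, and 5 without PBS replicate 3 in the third. Calls over all genes also varied, from 468 to 957, 541 to 1327 and 494 to 988. Member counts and counts over all genes did not always move together. In the first comparison, 957 genes and 0 members were called without PBS replicate 1, and 716 genes and 3 members without PBS replicate 2. In the second, 541 genes and 0 members were called without TNF replicate 2, and 1327 genes and 7 members without PBS replicate 3. The cause of these changes was not tested.

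For the other pathway lists, the count with TNF (3) became 1 with DESeq2, 0 at 0.01 and 5 with the neuronal term, and 0 to 4 without single libraries. With ACHP against TNF the count (1) became 2 with scaling without mitochondrial counts, no filter, 6 libraries, the GC offset, or the GC offset with replicate block, and 0 with DESeq2, at 0.01, with the neuronal covariate or with the neuronal term. With ACHP against PBS the count (1) became 2 with no filter, the replicate block or the GC offset with replicate block, and 0 with 6 libraries, thinned counts, at 0.01, the neuronal covariate or the neuronal term. Both ranged from 0 to 2 without single libraries. Calls over all genes changed in these settings too. With TNF they went from 917 to 755 with DESeq2. With ACHP against PBS they went from 891 to 493 with 6 libraries, 796 with thinned counts and 427 at 0.01. They went to 143 with the neuronal covariate and 162 with the neuronal term.

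Whether replicate numbers pair the libraries was not settled. Deviations of same-numbered libraries correlated at -0.1 to 0.174 over 9 pairs, and those of other numbers at -0.211 to 0.173. The replicate block called 1, 6 and 3 members in the 3 comparisons, the last being Atp5d, Atp5j2 and mt-Nd1. It called 945, 1175 and 988 of all genes, against 917, 1058 and 891 without the block.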

Other observations

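The mitochondrial genome also holds RNA genes outside the members, named here after their values were seen. mt-Tp, the proline tRNA gene on the light strand (MT:15356-15422), had 16.9, 16.5 and 15.2 CPM in PBS libraries, 34.0, 35.0 and 32.9 CPM in TNF libraries and 33.4, 21.6 and 29.7 CPM in ACHP libraries. Every TNF and ACHP library lay above every PBS library. The log2 fold change was 1.07 with TNF (SE 0.11, edgeR adjusted p = 3.2e-06) and 0.79 with ACHP against PBS (SE 0.11, edgeR adjusted p = 0.00027), and both calls held in all 23 alternatives run. Other tRNA genes of the same strand did not share this rise. With TNF the log2 fold change was 0.04 for mt-Tc (SE 0.22), -0.28 for mt-Tq (SE 0.32) and -0.28 for mt-Te (SE 0.47). Their groups overlapped and none was called (edgeR adjusted p = 0.719 to 0.947), at low levels of 0.32 to 3.44 CPM. mt-Tp is short and its 67 bases, printed for reference, lie 5′ to 3′ on its own strand. As reads of both strands were counted, the counts cannot tell its RNA from that of the opposite strand.
mt-Tp: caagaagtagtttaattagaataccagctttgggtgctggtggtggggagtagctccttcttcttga

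mt-Rnr2, the large ribosomal RNA of the mitochondrion, had 1763, 1852.5 and 2011 CPM in PBS libraries, 1652, 1979 and 1898 CPM in TNF libraries and 2216 to 2272 CPM in ACHP replicates 1 and 2 and 2041 CPM in replicate 3. It was higher with ACHP than with TNF by a log2 fold change of 0.24 (SE 0.06, edgeR adjusted p = 0.0106) and than with PBS by 0.21 (SE 0.06, edgeR adjusted p = 0.0243). DESeq2 gave adjusted p-values of 0.088 and 0.173. The first call was lost without TNF replicate 1 (edgeR adjusted p = 0.0919) or ACHP replicate 2 (0.0701). The second was lost without PBS replicate 1 or 2 or ACHP replicate 1 or 2, at 0.0775 to 0.111. How ribosomal RNA was removed in library preparation is not given in the sources used here.

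Gm28438, the chromosome 1 copy of mt-Nd3, was given 259, 303 and 331 counts in PBS libraries, 152, 102 and 177 in TNF libraries and 87, 402 and 224 in ACHP libraries. It was lower with TNF by a log2 fold change of -1.001 (SE 0.26, edgeR adjusted p = 0.025), a call that DESeq2 did not make (adjusted p = 0.214) and that was lost without TNF replicate 1 or 2 (edgeR adjusted p = 0.126 and 0.142). The ACHP libraries spanned the range of both other groups.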
